A study of Mus musculus with 6 samples.

Results

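Of the 10080 probes on these arrays, 7 represent genes that respond to glucocorticoids or handle steroids, picked by the gene symbol of the platform table: Fkbp5, Klf9, Mt1, Dusp1, Cdkn1a, Hsd11b2 and Ncoa1. Each gene had 1 probe, and all 7 probes were among the 2316 that gave a ratio on every array. RNA came from the hypothalamus of male DBA/1 mice, 8 weeks old at injection. The injection was intradermal. In the collagen group it held 100 ul of type II collagen together with complete Freund's adjuvant (100 ul), and in the control group 200 ul of the adjuvant without collagen, so that collagen and adjuvant dose cannot be told apart in any difference. LPS was given to all mice at day 24, the control group included, and they were decapitated at a time labelled "day 31 h". Every array carried collagen and control RNA together, and the 6 arrays made up 3 replicates with 2 dye orientations each. Whether a replicate was a mouse or a pool is not stated, so a p-value here measures the spread between 3 samples that may include technical spread.

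Glucocorticoids released by the adrenal gland bind the glucocorticoid receptor, which is held ready by HSP90 chaperones, enters the nucleus and switches on target genes. Fkbp5, Klf9, Mt1, Dusp1 and Cdkn1a are known targets in various tissues, Hsd11b2 encodes an enzyme that inactivates corticosterone, and Ncoa1 encodes a coactivator of steroid receptors. The hypothalamus drives this axis through corticotropin-releasing hormone and receives its negative feedback, and LPS is a classical activator of it. Joint movement of the targets in 1 direction over the arrays is the question asked of these data.

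The directions given here read channel A as Cy3 and channel B as Cy5, the order of channels in the labels; no source used here states it, and the other reading would turn every sign. Ratios existed for 46.1% to 84.9% of spots per array, and the SD of the log2 ratios of tested probes was 1.41 on 1 array of replicate 1, the one that had collagen in Cy3, against 0.36 to 0.59 on the other 5. The turned ratios of the paired arrays correlated negatively across probes (-0.20, -0.75 and -0.32 in replicates 1, 2 and 3). Across probes, ratios of collagen over control thus did not repeat when the dyes were exchanged. Replicate means correlated at 0.16 (1 and 2), -0.12 (1 and 3) and -0.13 (2 and 3). The directions given below for single genes are to be read with that limit. Of 17 hypothalamic markers, 13 had a probe. Oxt, Pmch, Gal, Gnrh1 and Cartpt were detected on 6 of 6 arrays in both groups, by a signal above background in at least 1 scan. Avp, Trh, Sst, Hcrt, Ghrh, Otp and Sim1 were detected on part of the arrays in both groups. Nkx2-1 was detected on 5 arrays with collagen and 6 with control. Of 5 markers of cortex and thalamus, 4 were detected on 6 of 6 arrays with collagen and all 5 on 6 of 6 with control. The 4 tested ones had log2 ratios of collagen over control of -0.22 to -0.06, and their part in the results was not tested. In tissue RNA, a lower ratio from fewer cells of a type cannot be told apart from less RNA per cell.

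The mean ratios of the 5 targets did not share a sign. Klf9 and Cdkn1a had positive mean log2 ratios of collagen over control, and Fkbp5, Mt1 and Dusp1 negative ones. Of the 2 steroid-handling genes Hsd11b2 was positive and Ncoa1 negative, so 3 of 7 were positive, where 33.7% of tested probes were. With limma (two-sided, Benjamini-Hochberg over 2316 probes), 0 of the 7 genes had an adjusted p under 0.05, where 0% of all tested probes did, and 0 of 7 had an unadjusted p under 0.05, where 1.08% of tested probes did. No member had the same sign on 6 arrays, which 0.777% of tested probes had (0.259% higher and 0.518% lower with collagen). Only Fkbp5 had the same sign in 3 of 3 replicates, lower with collagen, as 16.3% of tested probes were, and no member was higher in 3 of 3, as 7.34% were. The median log2 ratio was -0.09 over the 7 members and -0.09 over all tested probes.

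**Figure D1:**
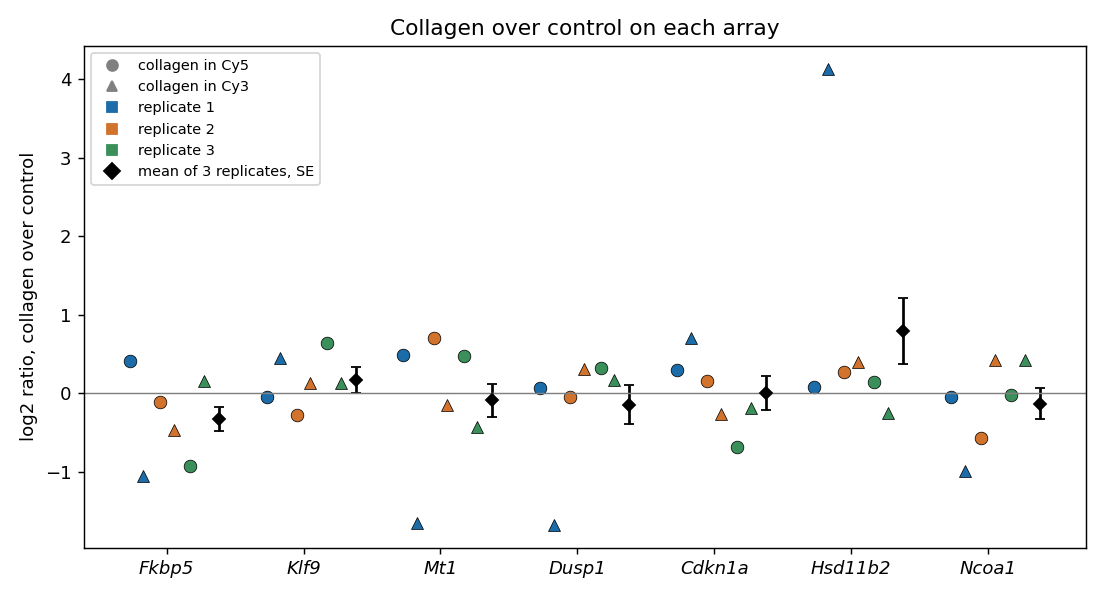
Log2 ratio of collagen over control for each gene (y axis) on each of 6 arrays, with circles for collagen in Cy5, triangles for collagen in Cy3 and colours for replicates. Black diamonds are the mean of 3 replicates with the moderated SE from limma. Every gene has points on both sides of 0, and the value of 4.14 for Hsd11b2 stands far above the rest.

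Single arrays gave the same picture. Of the 42 values of 7 genes on 6 arrays, 23 were above 0, where 47.6% of the values of all tested probes were. With collagen in Cy5, 5, 3 and 4 of the 7 genes were higher in replicates 1, 2 and 3, where 57.1%, 43.7% and 50.6% of tested probes were. With collagen in Cy3 it was 3, 4 and 4 genes, where 33.7%, 54.1% and 46.1% of tested probes were. The 2 arrays of a replicate held the same RNA with the dyes exchanged, yet they gave a gene the same sign in only 8 of 21 cases. These were 3, 2 and 3 of 7 genes in replicates 1, 2 and 3, where 40.7%, 21% and 41.5% of tested probes had matching signs. In no member did the arrays match in 3 of 3 replicates, as they did in 4.02% of tested probes, and for Mt1 they matched in 0 of 3, as in 29%.

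Fkbp5 (probe 8082, Entrez Gene 14229) encodes FKBP51, a co-chaperone on HSP90 that lowers the receptor's affinity for hormone and is itself induced by the receptor. Its normalised log2 level was 9.40, 8.57 and 9.75 in the collagen samples of replicates 1, 2 and 3, against 9.72, 8.86 and 10.13 in the control samples. The collagen sample was thus the lower one of each pair, while the levels of both groups overlapped. The gaps within the pairs are the replicate log2 ratios, at -0.32, -0.28 and -0.38. Their mean was -0.33 ± 0.15 (SE, n = 3, limma adjusted p = 0.872). Each SE given here is the moderated one from limma, which also draws on the spread of all tested probes. Behind these even replicate values stood uneven arrays, at 0.41, -0.10 and -0.93 with collagen in Cy5 and -1.05, -0.46 and 0.16 with collagen in Cy3. In replicates 1 and 3 the pair of arrays had opposite signs, and the mean of each pair came from 2 values more than 1 log2 unit apart.

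The Fkbp5 spot was dim. Its foreground was 1.54 to 3.05 times the local background in collagen and 1.65 to 2.73 times in control, and 7 of 12 channel readings were under 2 times. The deposited quality score of the spot, which runs between 0 and 1, reached at most 0.31. Just 1 of 3 scans gave a ratio on each of the 2 arrays with the lowest values, in replicate 1 the one where Cy3 marked collagen and in replicate 3 the one where Cy5 did. On the other 4 arrays the 3 scans of the same array differed by a median of 0.42, which is larger than the mean ratio itself. Leaving out the replicate 1 array at -1.05 moved the mean to -0.08.

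Klf9 (probe 5932, Entrez Gene 16601) encodes a Kruppel-like transcription factor that is a direct receptor target in brain. Normalised log2 levels were 10.35, 10.79 and 10.20 with collagen, against 10.15, 10.86 and 9.81 in control. The collagen sample was higher in replicates 1 and 3 and slightly lower in replicate 2, and the groups overlapped. The mean stood at 0.17 ± 0.17 (SE, n = 3; limma adjusted p = 0.872) on the log2 scale, with arrays at -0.05, -0.27 and 0.64 for collagen in Cy5 and 0.45, 0.14 and 0.13 for collagen in Cy3. Klf9 was thus higher on 4 of 6 arrays, including each array with collagen in Cy3. The highest value, 0.64, was an average over scans at 0.01, 0.11 and 1.81, so a single scan set it. Without replicate 3 the mean was 0.07.

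Mt1 (probe 2286, Entrez Gene 17748) encodes metallothionein 1, a small zinc-binding protein induced by metals, by inflammation and by glucocorticoids. Its normalised log2 level was 10.56, 14.22 and 11.04 with collagen, against 11.14, 13.94 and 11.01 in control. Both samples of replicate 2 stood far above the others, while collagen and control differed less within a replicate. These levels are means of 2 arrays that also differed. In replicate 1 the arrays read 10.08 and 11.04 for collagen and 9.59 and 12.68 for control. In replicate 3 they read 10.54 and 11.55 for collagen and 10.06 and 11.97 for control. Between the highest and the lowest replicate the level differed by 3.23 log2 units, a 9.39-fold range that exceeded that of 92.1% of tested probes, whose median range was 2.73-fold. In replicate 2 the spot gave 39119 units per pixel for collagen and 23022 for control with collagen in Cy5, and 10995 for collagen and 24534 for control with collagen in Cy3. The labels name no difference between replicates that would match. Brightness across tested probes also set replicate 2 apart, since its arrays correlated at 0.07 to 0.43 with those of replicates 1 and 3. Arrays of replicate 1 correlated at 0.65 to 0.75 with those of replicate 3. The 2 arrays within replicates 1, 2 and 3 correlated at 0.60, 0.93 and 0.86. What part these differences in brightness have in the Mt1 level was not tested.

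The sign of the Mt1 ratio differed between the dye orientations. Arrays read 0.49, 0.70 and 0.48 with collagen in Cy5, and -1.64, -0.14 and -0.42 with collagen in Cy3. The sample in channel B was therefore the brighter one on 6 of 6 arrays, as for 9.15% of tested probes, by 0.65 on average (log2). With a loess curve per printing block the replicate 2 array with collagen in Cy3 read 0.02, so channel B was brighter on 5 of 6 arrays. In the authors' deposited table, read as collagen over control, Mt1 was at -0.01 on the replicate 1 array with collagen in Cy5 and above 0 on 2 of 3 arrays with collagen in Cy3, so its signs there did not split by orientation. The reverse, channel B dimmer on 6 of 6, held for 6.39% of tested probes and for 0 of the 7 genes. With orientations averaged, Mt1 stood at -0.09 ± 0.21 (SE, n = 3; limma adjusted p = 0.914), and replicates at -0.57, 0.28 and 0.03. Without replicate 1 the mean turned to 0.15. The scans of an array differed by a median of 0.13, and by 0.67 on the replicate 3 array with collagen in Cy5, where they read 0.68, 0.72 and 0.04.

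The Mt1 promoter is shown because among the members with a promoter sequence it held the most copies of a metal response element core, searched as TGCACNC or TGCGCNC on both strands. The sequence is from RefSeq, build GRCm38.p6, plus strand, chr8:94178839-94179138, and covers 250 bases before and 50 after the transcript start. Capitals mark the 3 cores, which begin at positions -23, 3 and 21 counted from the start.
Mt1 promoter: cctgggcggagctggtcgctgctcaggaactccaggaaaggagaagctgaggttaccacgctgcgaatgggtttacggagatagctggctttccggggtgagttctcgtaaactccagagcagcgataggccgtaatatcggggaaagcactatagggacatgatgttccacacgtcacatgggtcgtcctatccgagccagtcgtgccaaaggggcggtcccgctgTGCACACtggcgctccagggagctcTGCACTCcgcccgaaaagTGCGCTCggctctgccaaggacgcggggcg
Such a core occurred in 25.7% of 32851 mouse promoters of this length, and 3 or more in 1.97%. The Dusp1 promoter held 1 core and those of Fkbp5, Klf9, Cdkn1a and Ncoa1 none. The glucocorticoid receptor half-site AGAACA, searched on both strands as well, was in 19% of all promoters. Among the 6 members with a promoter in the table it was found once, for Ncoa1, and not for the 5 targets. A missing match says only that these letters are not in this short window.

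Dusp1 (probe 7157, Entrez Gene 19252) encodes a phosphatase that switches off the p38 and JNK kinases and is induced both by glucocorticoids and, as an immediate early gene, by stress. Its normalised log2 level was 9.94, 9.98 and 10.76 with collagen, against 10.74, 9.84 and 10.51 in control. Collagen was lower in replicate 1 and higher in replicates 2 and 3. On single arrays the log2 ratio was 0.06, -0.04 and 0.33 with collagen in Cy5 and -1.67, 0.31 and 0.17 with collagen in Cy3. One array of replicate 1 thus stood apart from 5 values near or above 0. The mean was -0.14 ± 0.25 (SE, n = 3; limma adjusted p = 0.880), and it turned to 0.19 without replicate 1.

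Cdkn1a (probe 2633, Entrez Gene 12575) encodes the cell cycle inhibitor p21, a target of p53 and, in several cell types, of the glucocorticoid receptor. Its normalised log2 level was 9.49, 9.54 and 9.06 with collagen, against 8.98, 9.60 and 9.49 in control. Collagen was higher in replicate 1, nearly equal in replicate 2 and lower in replicate 3. On single arrays the log2 ratio was 0.30, 0.16 and -0.68 with collagen in Cy5 and 0.71, -0.26 and -0.18 with collagen in Cy3. Both arrays of replicate 1 were above 0 and both of replicate 3 below, while the arrays of replicate 2 had opposite signs. The mean of 0.0074 ± 0.22 (SE, n = 3; limma adjusted p = 0.991) had a 95% half-width of 0.55. Without replicate 1 it was -0.24, and the lowest array value rested on 1 scan of 3.

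Hsd11b2 (probe 1480, Entrez Gene 15484) encodes the enzyme that converts corticosterone to an inactive ketone and is best known for shielding the mineralocorticoid receptor in the kidney. Its normalised log2 level was 10.98, 10.09 and 9.23 with collagen, against 8.87, 9.75 and 9.29 in control. Collagen was clearly higher in replicate 1, moderately in replicate 2 and about equal in replicate 3. The mean, 0.80 ± 0.42 on the log2 scale (SE, n = 3; limma adjusted p = 0.872), averaged replicates at 2.11, 0.34 and -0.05. Single arrays stood at 0.08, 0.27 and 0.14 with collagen in Cy5 and 4.14, 0.41 and -0.25 with collagen in Cy3, so 5 of 6 were above 0 and 1 array carried most of the mean. Without replicate 3 the mean was 1.22 and passed the threshold (limma adjusted p = 0.0408), as 30 of 2316 tested probes did. In that limma fit 165 probes had an unadjusted p under 0.05, and 150 of them were higher with collagen. Without replicate 1 the Hsd11b2 mean was 0.14.

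On the array at 4.14, 1 of 3 scans gave a ratio. There the collagen spot read 10278 units per pixel over a local background of 27120, and the control spot 289 over a background of 1275. The median ratio of its printing block on this array was 2.58. Over all arrays its foreground was 1.38 to 4.88 times the background in collagen and 1.23 to 3.75 times in control, with 7 of 12 readings under 2 times. With a loess curve for each printing block the array read 0.75 and the mean was 0.20.

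Ncoa1 (probe 9212, Entrez Gene 17977) encodes steroid receptor coactivator 1, which bridges hormone-bound receptors to histone acetylation and transcription. Its normalised log2 level was 11.95, 10.53 and 12.55 with collagen, against 12.47, 10.60 and 12.35 in control. Collagen was lower in replicates 1 and 2 and higher in replicate 3, within differences between replicates of 1.88 log2 units, or 3.68-fold. Arrays read -0.05, -0.57 and -0.01 with collagen in Cy5 and -0.99, 0.42 and 0.42 with collagen in Cy3. The mean was -0.13 ± 0.20 (SE, n = 3; limma adjusted p = 0.872), and without replicate 1 it turned to 0.07. Ncoa1 was the one member whose 12 channel readings all reached 2 times the background, and its scans differed by a median of 0.11, while its arrays spread from -0.99 to 0.42.

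**Figure D2:**
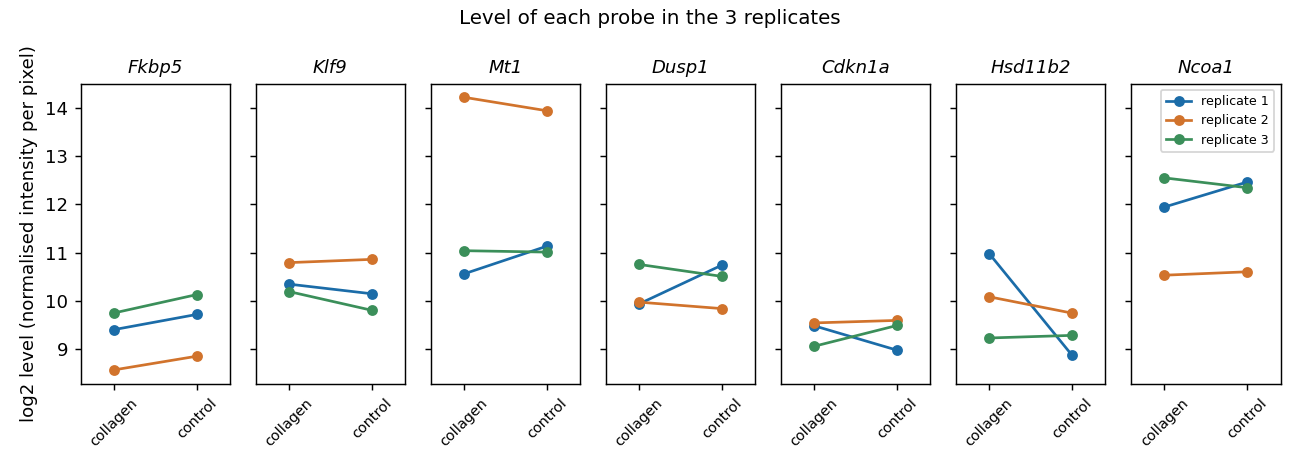
Normalised log2 level (intensity per pixel, y axis) of each gene in the collagen sample (left) and the control sample (right) of each replicate, with a line per replicate. The gap between the levels of a replicate is its log2 ratio. Fkbp5 lines run upwards to control in 3 of 3 replicates, and the Mt1 level of replicate 2 lies about 3 log2 units above the others in both groups.

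Channel readings under 2 times the background were most frequent for Fkbp5, Hsd11b2, Cdkn1a and Klf9, at 7, 7, 6 and 5 of 12, against 1 for Dusp1 and for Mt1. Klf9 was dim on part of the arrays only and reached 14.1 times the background. Fkbp5, Hsd11b2 and Cdkn1a reached at most 3.05, 4.88 and 4.63 times. The authors' deposited table has no value for Fkbp5 on 2 arrays and for Hsd11b2 and Cdkn1a on 1 array each. These 4 are the member spots for which a single scan gave a ratio. The deposited table thus leaves out both the 4.14 of Hsd11b2 and the -1.05 and -0.93 of Fkbp5. Read as collagen over control, the authors' deposited table has Fkbp5 above 0 on 1 of 4 arrays, Hsd11b2 on 3 of 5 and Cdkn1a on 3 of 5. For Klf9, Mt1 and Ncoa1 it is above 0 on 4 of 6 arrays, and for Dusp1 on 5 of 6. The direction and log base of that table are not stated. As read, its values correlated positively with the ratios given here, at 0.67 to 0.91 on the 6 arrays.

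**Figure D3:**
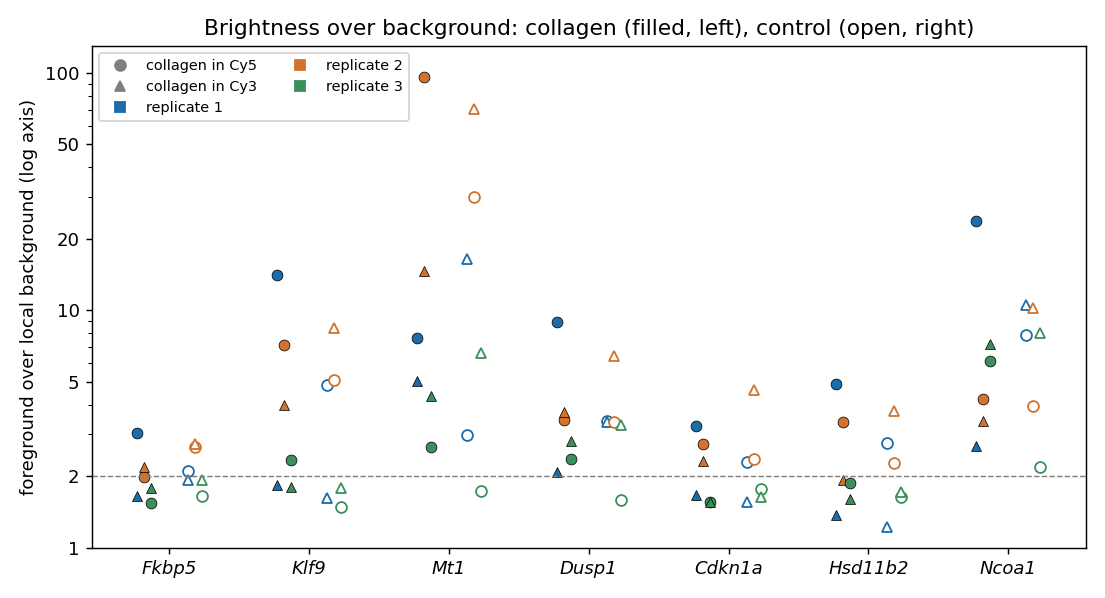
Foreground over local background (log axis) of each gene's spot in the collagen channel (filled, left) and the control channel (open, right), 1 point per array, averaged over scans. The dashed line is at 2; 7 of 12 Fkbp5 points lie under it and 0 of 12 Ncoa1 points do.

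Probes were printed in 48 blocks, and the members lay in 7 different ones. A member's ratio had the sign of its block's median on 37 of 42 occasions, or 88.1%, against 71.2% of 13896 over all tested probes. Across the 6 arrays, which share dyes and replicates, the ratio correlated with the block median at 0.99 for Hsd11b2, 0.97 for Dusp1, 0.96 for Mt1 and Cdkn1a and 0.85 for Ncoa1, and at 0.57 for Fkbp5 and 0.45 for Klf9. The median of this correlation over all tested probes was 0.70. On the array with the widest ratios the block medians were 2.58 for Hsd11b2, -0.86 for Dusp1, -0.93 for Fkbp5 and -0.68 for Mt1, each with the sign of the gene's own extreme value. Dusp1 had its own value 0.81 below this block median and Mt1 0.96 below. With a curve per block, Dusp1 was at 0.14 and higher on 5 of 6 arrays, so its direction turned. The other 6 kept their signs, at -0.26 for Fkbp5, 0.20 for Hsd11b2, 0.07 for Klf9, -0.03 for Ncoa1, -0.02 for Mt1 and 0.0034 for Cdkn1a.

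**Figure D4:**
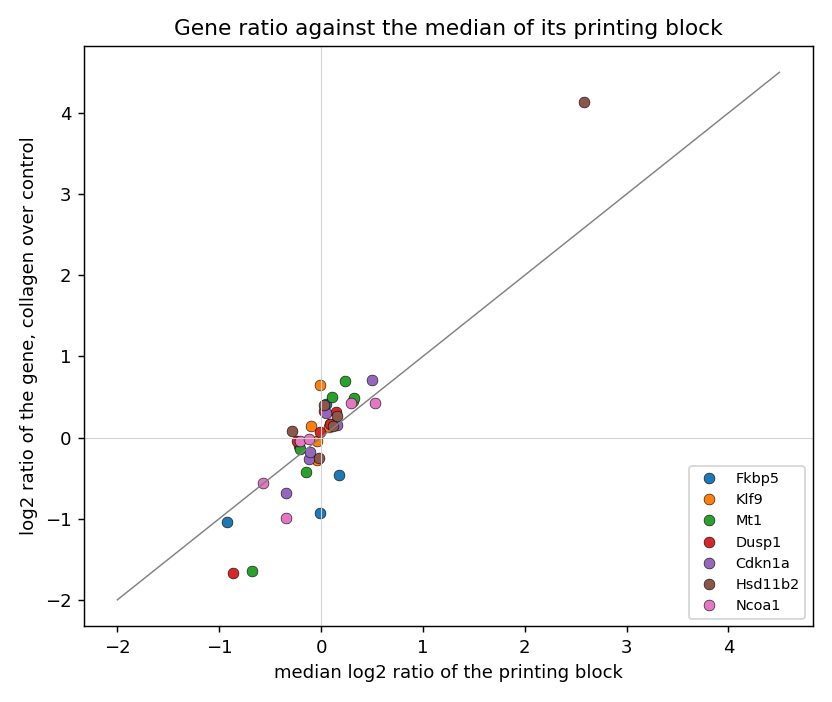
Log2 ratio of each gene on each array (y axis) against the median log2 ratio of the printing block that holds its probe (x axis), 42 points, with the line of equality. Points follow the line, and the extreme Hsd11b2 value sits at a block median of 2.58.

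The members did not move as a group from array to array. Over the 6 arrays the ratios of Dusp1 correlated at 0.81 with those of Mt1 and 0.83 with those of Ncoa1, but at -0.97 with those of Hsd11b2. Fkbp5 and Klf9, both targets, correlated at -0.78. These are descriptions over 6 arrays that share replicates, and 1 array with wide ratios weighs heavily in them. The tested probes most like a member over the 6 arrays were picked by the highest r, so that choice itself makes r high. They were Cfp (r = 0.99) for Fkbp5, Nudt9 (0.997) and Ndn (0.996) for Hsd11b2, and Gadd45b (0.94) for Klf9. Ube2s (0.998) was picked for Mt1, Chmp2b (0.999) for Dusp1, Slc39a13 (0.97) for Cdkn1a and Azi2 (0.99) for Ncoa1.

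Around the members stood 9 lists of related genes with 138 genes, of which 74 had a probe and 24 were tested. Of the 24, 0 passed the adjusted threshold, 0 had an unadjusted p under 0.05 and 0 had the same sign on 6 arrays. Positive ratios were found for 7 and negative for 17, to be read against the same 33.7% of positive probes. Of the 17 genes beyond the members, 4 were positive and 13 negative, with a median of -0.10. The glucocorticoid-induced list had 6 tested genes, 2 positive and 4 negative, and its only non-member, Lcn2, an iron-carrier binding protein, was at -0.08 ± 0.21 (SE, n = 3).

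The receptor chaperones had 7 tested genes with a median of -0.18, where the median of all tested probes was -0.09. Of these genes 6 were negative, including Fkbp5, and 1 was positive, where 33.7% of tested probes were positive. Hsp90aa1, the inducible HSP90 that folds the receptor, was at -0.35 ± 0.24, with replicates at -0.91, -0.33 and 0.19. Ppid, a co-chaperone of the same class as FKBP51, was at -0.20 ± 0.17, and Bag1, a nucleotide exchange factor of HSP70, at -0.18 ± 0.23. The J-proteins Dnaja1 and Dnajb1 were at -0.08 ± 0.15 and -0.10 ± 0.16, and Hspa4, a relative of HSP70, at 0.14 ± 0.20. None of these passed the test, and the list's median was 0.03 on arrays with collagen in Cy5 and -0.45 on those with collagen in Cy3.

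Among steroid genes, Pgr, the progesterone receptor, was lower in 3 of 3 replicates at -0.40, -0.16 and -0.36, as 16.3% of tested probes were. Its mean was -0.31 ± 0.16 (SE, n = 3, limma adjusted p = 0.872), but it was higher on 2 of 6 arrays. Cyp11a1, which makes pregnenolone from cholesterol, stood at 0.20 ± 0.29, with replicates at 0.96, 0.10 and -0.45. Ncoa6, another coactivator, was at -0.06 ± 0.18. Of the MAP kinase phosphatases beside Dusp1, Dusp14 was at -0.27 ± 0.16 and higher on 1 of 6 arrays, and Dusp16 at -0.29 ± 0.24. The metal and oxidative response genes Sod1 and Txnrd1 were at -0.27 ± 0.25 and 0.07 ± 0.16. Gadd45b and Ccng1, both damage response genes, were at 0.04 ± 0.15 and -0.25 ± 0.16, and Sp3, a relative of the Kruppel-like factors, at -0.05 ± 0.17. None of these genes passed the threshold.

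Across 14 other settings that gave it a value, Fkbp5 stayed negative, between -0.45 and -0.08. Across 15, Hsd11b2 stayed positive, between 0.12 and 1.43. Keeping saturated scans, asking for 1 array per replicate or fitting a replicate block left these means unchanged, at -0.33 and 0.80. Neither gene had a value with the second or last scan alone, a stricter filter on dim probes or the authors' deposited table. Klf9 was positive in 17 of 18. The exception was the mean of the authors' deposited log ratios, at -0.0069 as read and 0.0069 if their unstated direction is turned. As read, they correlated positively with the ratios given here on every array. Mt1, Dusp1 and Ncoa1 changed sign when replicate 1 was left out, and Cdkn1a in 7 of 15 settings.

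**Figure D5:**
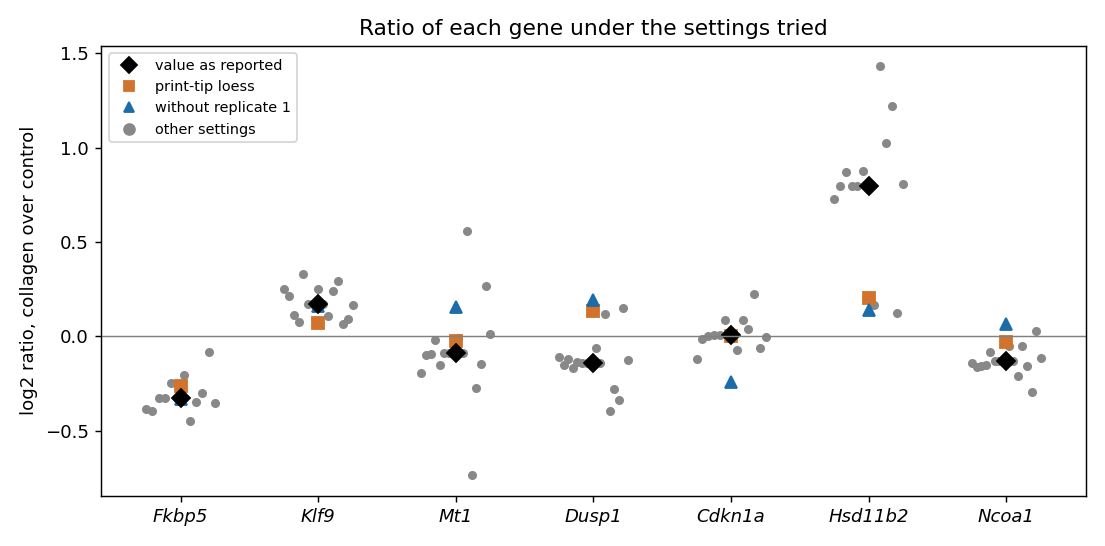
Mean log2 ratio of collagen over control (y axis) of each gene as reported (diamonds), with print-tip loess (squares), without replicate 1 (triangles) and under the other settings (grey points), leaving out the authors' deposited log ratios, whose base is not stated. Fkbp5 points lie below 0 and Hsd11b2 points above, while Mt1, Dusp1, Cdkn1a and Ncoa1 have points on both sides.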

How the data were processed

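Hypothalamic RNA was measured on in-house 2-colour oligonucleotide arrays, 6 arrays with 3 scans each. The deposited intensities of channels A and B were background-subtracted sums over a spot's pixels, per the file headers. Local background signal, spot area in pixels, the saturation factor (a fraction) and the quality score were used as deposited, per the file headers. The authors' deposited value table holds log ratios, treated as a score because base and direction are not stated; the software is not given in the sources used here. Normexp correction, planned for uncorrected values, became an alternative because the deposited intensities were already corrected.

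Log2 ratios of channel B over A were computed from the deposited intensities, smoothed by loess (span 0.3) against summed intensity in each scan, averaged over scans (dropping saturated ones where another was clean), turned to collagen over control and averaged over the 2 arrays of a replicate. The arrays of a replicate share their number in the sample titles and hold the same 2 RNAs with the dyes exchanged, so they entered as 1 replicate. The 3 means were tested against 0 in limma 3.58.1 (R 4.3.3, lmFit and eBayes, two-sided, Benjamini-Hochberg, threshold 0.05). Probes needed a ratio on 6 arrays and a foreground of 1.5 times the background in a channel on 4. Levels are mean log2 intensities per pixel of the 2 channels after Aquantile normalisation, with the log2 ratio then split evenly between the channels. The gap between a collagen and a control level is therefore the ratio itself, not a second measurement. The fit was tested on simulated data. Figures used matplotlib 3.10.9.

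The members, the 9 lists and the markers were chosen with earlier results of these data known. Named genes were the members, the tested list genes and, for each member, the most correlated tested probes. Platform symbols and RefSeq tables (GRCm38.p6) served for names and promoters; no coordinates of the array probes are given in the sources used here. The number of arrays limits the precision. Alternatives covered normalisation, background, scans, filters, dye orientation, a replicate block and left-out arrays or replicates.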

Additional observations from a re-analysis of the deposited data

Results flagged for a closer look

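Hsd11b2 stood apart on 1 array, that of replicate 1 where Cy3 marked collagen. It read 4.14 there, against -0.25 to 0.41 on the other 5 arrays, a gap larger than Dixon's critical share of the range allows for 6 values. Dusp1 read -1.67 on the same array and -0.04 to 0.33 on the others. On this array the SD of tested probes was 1.41, against 0.36 to 0.59 on the other 5. The printing block of Hsd11b2 had a median log2 ratio of 2.58 there, and that of Dusp1 a median of -0.86. How many of the tested probes the same rule would flag was not counted. Chance alone flags about 1 in 20 groups this way when the values are independent, which paired arrays of unequal spread are not.

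Mt1 averaged 0.56 on the 3 arrays with collagen in Cy5 and -0.74 on the 3 with collagen in Cy3, a difference of 1.29. Every array of the first orientation was above 0 and every array of the second below. With a loess curve per printing block the averages were 0.32 and -0.37, a difference of 0.69, and 1 array with collagen in Cy3 was above 0. The difference between orientations was not tested.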

How the results depend on the processing

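Across 19 other settings, 17 gave 0 probes past the adjusted threshold. The count was 34 with collagen in Cy5 only, and 0 to 30 when a replicate was left out, the 30 without replicate 3. With the replicate number as a replicate block (6 arrays, consensus correlation -0.29) it was 0, with 32 probes at an unadjusted p under 0.05, and this pairing changed no call. Loess against intensity per pixel was chosen after seeing the data.

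Without 1 replicate, Hsd11b2 ranged from 0.14 to 1.22. The highest was without replicate 3 (limma adjusted p = 0.0408), where 30 of 2316 tested probes passed. Mt1 ranged from -0.27 to 0.15, Dusp1 from -0.34 to 0.19, Cdkn1a from -0.24 to 0.23 and Ncoa1 from -0.30 to 0.067. Each of these last 4 turned only without replicate 1. Without the array of widest spread Mt1 was 0.27, Dusp1 0.15, Cdkn1a -0.060 and Ncoa1 0.028. With collagen in Cy5 only Mt1 was 0.56, Dusp1 0.12 and Cdkn1a -0.074. The authors' deposited log ratios, in a base and direction not stated, gave Mt1 0.12, Dusp1 0.055, Ncoa1 0.022 and Klf9 -0.0069 as read. Read so, they correlated positively with the ratios given here on every array, at 0.67 to 0.91. Turned, these signs and these correlations would be the opposite. Dusp1 was 0.14 with print-tip loess, and Mt1 was 0.014 with loess per pixel. Cdkn1a was -0.12 with median centring, -0.012 with normexp, -0.000188 with the second scan alone and -0.0022 with loess per pixel. The cause of these turns was not tested.

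Members with the same sign on every array numbered 3 with collagen in Cy5 only and 2 in Cy3 only, where 38.7% and 31.9% of tested probes had it over those 3 arrays, and 0 to 1 without a replicate (4.53% to 5.96% of tested probes). Members with the same sign in every replicate numbered 0 with the second scan alone, the last scan alone, a stricter filter on dim probes or the authors' deposited table, which tested 5, 4, 3 and 4 members and where 22.8%, 21.7%, 18.4% and 18.6% of tested probes had it. They numbered 2 without the widest array (21.5% of tested probes), and 4, 2 and 3 without replicates 1, 2 and 3 (44.9%, 45% and 57.3%). The glucocorticoid-induced list's median ranged from -0.28 to 0.057 without a replicate. The chaperone list's median was 0.030 with collagen in Cy5 only and -0.45 in Cy3 only. Fkbp5, Hsd11b2 and Cdkn1a had no value in settings where an array lost its spot.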
